A study of Mus musculus with 6 samples.

Results

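The cytosolic heat shock genes described here are 9 chaperone genes and Hsf1, the gene of their main inducing transcription factor. They were taken by exact symbol from a written list of 10, and all 10 were found among the 24848 genes of the deposited tables. RNA-seq was made from brains of mouse embryos at the E14.5 stage, 3 labelled wild type (WT) and 3 labelled E4f1 KO. The transcription factor E4F1 is studied in this series for its part in pyruvate metabolism and in the tRNA-modifying Elongator complex. The labels name no promoter, Cre driver or deleted exons for the KO, and they do not state litters. Each brain carries a number of its own in the labels, and values below are listed in the order of the labelled replicates 1, 2 and 3. All 6 brains were flash frozen, and no treatment or heat stress is named for either group.

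Heat shock proteins are chaperones that keep newly made or damaged proteins from aggregating. HSP70 proteins bind short unfolded stretches in a cycle driven by ATP, J domain proteins such as DNAJA1 and DNAJB1 bring them their clients and trigger ATP hydrolysis, and HSP110 proteins release the ADP so that the cycle can restart. HSP90 proteins act later, on partly folded kinases and receptors. When misfolded protein accumulates, HSF1 is freed from chaperones, forms trimers and binds heat shock elements, which are inverted repeats of the unit GAA. Hspa1a, Hspa1b, Dnajb1, Hsph1 and Hsp90aa1 are well-known inducible targets, whereas Hspa8 and Hsp90ab1 are expressed at high levels without stress.

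The start regions of 6 members (Hsph1, Hspa4, Dnaja1, Dnajb1, Hspa1a and Hspa1b) were in the RefSeq promoter table of GRCm38.p6, which covers 250 bases before and 50 after each start site. Hspa8, Hsp90aa1, Hsp90ab1 and Hsf1 were not matched there. The stretches of 60 bases that hold a pair of inverted GAA units before the start site are shown because heat shock elements are built of such units. Binding of HSF1 to these stretches was not measured. The stretches are written 5′ to 3′ on the strand of the gene, and the capitals mark GAANNTTC or TTCNNGAA.
Hspa1a: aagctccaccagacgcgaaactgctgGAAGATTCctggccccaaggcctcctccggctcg
Hspa1b: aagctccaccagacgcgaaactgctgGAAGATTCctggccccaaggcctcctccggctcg
Dnaja1: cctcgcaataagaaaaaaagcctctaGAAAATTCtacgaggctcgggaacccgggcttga
Hsph1: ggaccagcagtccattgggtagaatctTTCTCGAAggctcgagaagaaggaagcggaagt
The first pair lie at chr17:34972227-34972286 and chr17:34959309-34959368 (both minus strand), the Dnaja1 stretch at chr4:40722318-40722377 (plus strand) and the Hsph1 stretch at chr5:149636337-149636396 (minus strand). The stretches of Hspa1a and Hspa1b are the same letter for letter, and their whole windows agree at 296 of 300 bases. Each of these motifs reads the same on both strands, and 15.1% of all 32851 promoter windows hold at least 1 of them. Hsph1 also has 3 units in a row, TTCTGGAAAGTTC (chr5:149636288-149636300), at base 37 from the start site of its first listed window. The annotated Hsph1 gene reaches 149636498 on this minus strand. The start site used for Hsph1 therefore lies inside the gene, and so does the stretch printed as before it. A 3-unit motif (GAANNTTCNNGAA, searched on both strands, where it reads TTCNNGAANNTTC) was found in 0.603% of the windows, and it contains 2-unit motifs. No window of Hspa4 or Dnajb1 held a 2-unit motif. The letters TGACGT, the core of the E4F1 consensus, were in none of the 6 members' windows and in 7.51% of all windows (both strands).

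CPM values are counts scaled to library totals that were corrected by the TMM factors of edgeR (0.9512 in WT 3 to 1.035 in KO 1). E4f1 itself was measured at 20.7, 21.6 and 21.5 CPM in the WT brains. The KO brains had 7.12, 7.01 and 6.92 CPM, so the libraries match their labels. Its log2 fold change was -1.60 ± 0.08 (fitted value ± standard error, as for all fold changes below, n = 3 brains each; edgeR adjusted p = 0.00142). The libraries held between 42113465 and 74064707 counts, and 15848 genes, all 10 members among them, passed the filter on low counts. In KO the neuron markers summed to 4393 to 5065 CPM, against 5849 to 6774 CPM in WT, and the microglia markers to 87.1 to 126 CPM against 49.6 to 73.7 CPM. KO 3 had the most meninges markers (5220 CPM, against 446 to 2639 CPM in the other 5 libraries). Midbrain markers summed to 69.9, 33.9 and 3.07 CPM in WT and to 0.266, 1.61 and 1.16 CPM in KO. No marker on these lists was at 0 in all 6 libraries. The midbrain markers thus varied widely within WT, where WT 3 lay near the KO brains. In tissue samples, fewer cells of a type, less RNA per cell and a difference in the tissue taken cannot be told apart.

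The heat shock genes did not move as a block in KO. Of the 10 members, 1 fell (Hsph1) and 0 rose in the edgeR test at an adjusted p below 0.05, where 0.492% of all tested genes were lower and 0.511% higher. At an unadjusted p below 0.05 the members counted 3 lower and 2 higher (9.31% and 10.3% of all tested genes). The median log2 fold change of the 10 was -0.07, beside -0.000767 for all tested genes. With scaling by library totals the medians were -0.0061 and 0.06, and 0 members were called (0.398% of genes lower, 0.776% higher). Single members ranged from -0.48 (Hsph1) to 0.75 (Hspa1a). By these TMM-scaled CPM values, every KO brain lay below every WT brain in 5 members and above every WT brain in 2. The same held for 13.0% and 14.6% of all tested genes. Overlap was not examined with scaling by library totals alone. DESeq2 called Hsph1 and Dnaja1 lower and Hsp90ab1 higher (it called 4.06% of its tested genes lower and 4.82% higher), and limma-voom called Hsph1 alone (0.568% lower, 0.612% higher). Limma fits on log2(TPM + 1) and log2(TPM + 0.1) called Hsph1 and Dnaja1 lower and 0 members higher (0.852% and 0.845% of genes lower, 0.873% and 0.838% higher).

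**Figure D1:**
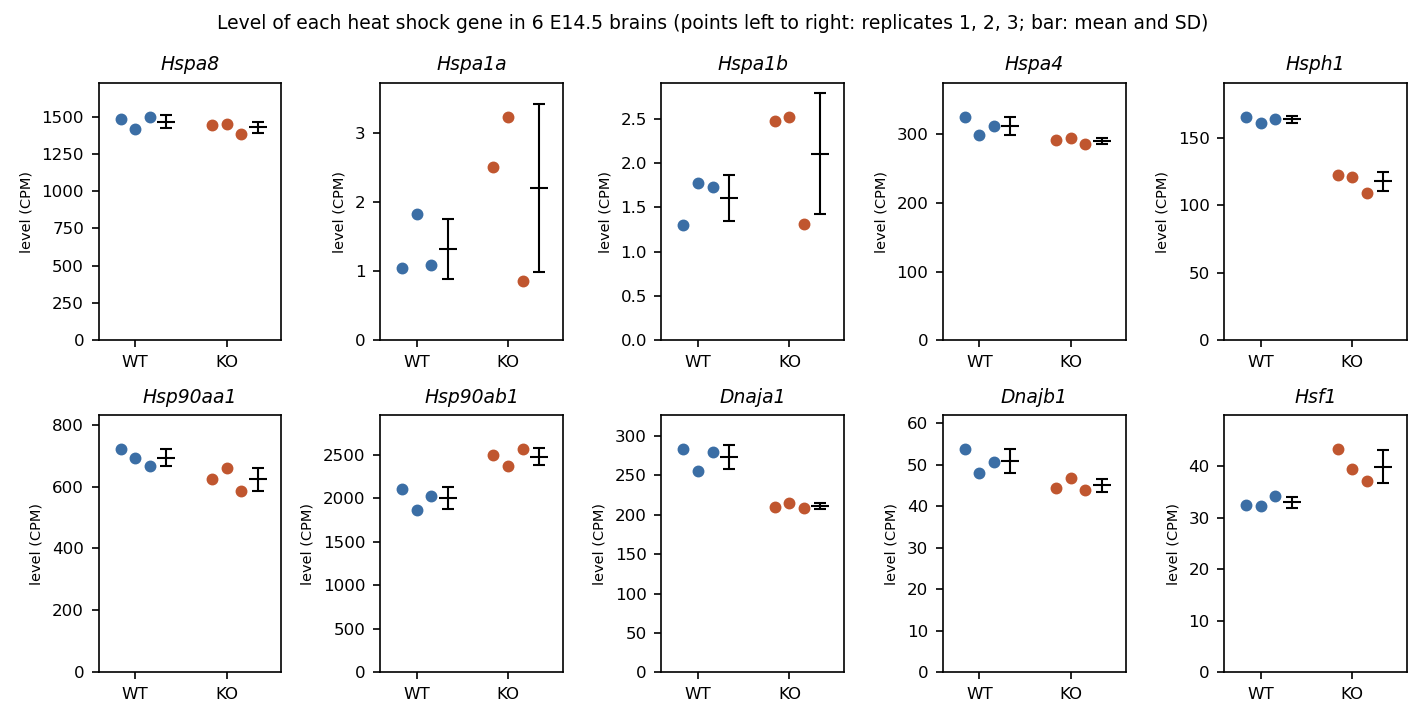
Level of each of the 10 genes in CPM, on axes that start at 0, for the 3 WT (blue) and 3 KO (orange) brains in the order of their replicate numbers, with the mean and SD beside them. Hsph1 and Dnaja1 stood lower in all 3 KO brains, Hsp90ab1 and Hsf1 higher, and Hspa1a and Hspa1b spread most, with KO 3 lowest of the KO brains.

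Levels between genes are compared as TPM, the deposited unit that corrects for transcript length. In both groups Hsp90ab1, the constitutive cytosolic HSP90, had the highest TPM of the 10, with 2204 ± 134 in WT and 2686 ± 90.1 in KO (mean ± SD, n = 3 each), rank 22 of all genes over the 6 libraries. Hspa8, the constitutive HSP70 also called HSC70, followed at 1959 ± 52.6 TPM in WT and 1876 ± 73.8 in KO, rank 45. Hsp90aa1, the inducible HSP90, stood at 664 ± 28.4 TPM in WT. Dnaja1 (216 ± 11.7), Hspa4 (178 ± 7.54) and Hsph1 (127 ± 1.59) came next in WT. In KO, Dnaja1 at 164.5 ± 4.20 TPM and Hspa4 at 163 ± 4.63 TPM no longer differed beyond their spread. Dnajb1 and Hsf1 also changed order, with 45.9 ± 2.57 and 39.7 ± 1.27 TPM in WT and 40.02 ± 1.68 and 47.2 ± 4.25 TPM in KO. The inducible HSP70 genes Hspa1a and Hspa1b were far below the rest, at 1.29 ± 0.436 and 1.56 ± 0.252 TPM in WT, and did not differ from each other beyond their spread. Together the 10 genes made up between 0.521% and 0.578% of all TPM in the 6 libraries, and KO 2, at 0.564%, lay next to WT 1, at 0.562%.

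Among the HSP110 genes, Hsph1 (chromosome 5, 149616843 to 149636498, GRCm38), which encodes HSP105, was the only member to pass the test. It was measured at 166, 161 and 163.9 CPM in WT and at 122, 121 and 110 CPM in KO. The coefficient of variation was 1.36% over the WT brains, and the highest KO brain was well below the lowest WT brain. Hsph1 fell to 0.719 of its WT level, with a log2 fold change of -0.48 ± 0.07 (95% interval -0.63 to -0.32, edgeR adjusted p = 0.0369). Its rank by p was 104 of 15848. In each of the 6 fits that left out 1 library, the fold change stayed between -0.50 (without KO 1) and -0.43 (without KO 3), but the adjusted p lay between 0.0848 and 0.192, so none of these fits called it. The call was also lost with scaling by library totals (-0.41 ± 0.07, adjusted p = 0.0608), in WT 1, WT 2, KO 1 and KO 2 alone (-0.42, 0.394) and with the midbrain score, averaged over log2 CPM of Pax5, En1 and En2, as a covariate (-0.48, 0.981), and both of the latter fits called 0 genes of any kind. The neuron marker sums given above did not overlap between the groups (0 of 6 genes called by edgeR, 3 lower by DESeq2). The microglia marker sums did not overlap either (1 of 6 called by edgeR, 3 higher by DESeq2, 2 by limma-voom). Nor did the endothelium markers, at 188 to 224 CPM in WT and 245 to 336 CPM in KO (0 of 5 called by edgeR, 3 higher by DESeq2). Erythroid markers overlapped, at 300.5 to 796 CPM in WT and 684 to 964 CPM in KO (0 of 7 by edgeR, 2 higher by DESeq2). By mean log2 CPM the nearest brains were close for neuron markers (8.99 in WT 1, 8.981 in KO 2). The same held for microglia markers (2.9 in WT 2, 2.93 in KO 1). Of the 6 neuron markers, 1 had a positive fold change and 5 a negative one. The part of these cell types in the change of Hsph1 was not tested.

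Hspa4 (chromosome 11, 53259814 to 53300479), which encodes the HSP110 protein APG-2, is the closest relative of Hsph1 on the list, with 62.5% identity of the aligned coding sequence. It stood at 326, 299 and 312 CPM in WT and at 291, 295 and 286 CPM in KO. The KO brains were all below the WT brains, by a small margin. The log2 fold change of -0.10 ± 0.06 did not pass the test (95% interval -0.25 to 0.05, edgeR adjusted p = 0.394). The ratio of Hspa4 to Hsph1 in TPM was 1.45, 1.36 and 1.403 in WT and 1.75, 1.79 and 1.92 in KO. The ratio was thus higher in every KO brain than in any WT brain. It is 1 of 7 ratios chosen after the levels were seen, so it restates the change of Hsph1 and is no separate test.

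The HSP70 genes fell into a highly expressed and a barely expressed set. Hspa8 (chromosome 9, 40801276 to 40805202) stood at 1481, 1418 and 1500 CPM in WT and at 1444, 1452 and 1384 CPM in KO. The groups overlapped, and the log2 fold change of -0.04 ± 0.07 had an interval from -0.20 to 0.12 (edgeR adjusted p = 0.772). Its direction turned under scaling by library totals (0.03 ± 0.07). Of the windows of 75 bases in its longest coding transcript, 68.0% also occur in transcripts of 9 other annotated genes, none of them listed in the deposited tables, so its level may miss or include reads of such copies.

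Hspa1a (chromosome 17, 34969359 to 34972156) and Hspa1b (chromosome 17, 34956429 to 34959238) are neighbouring copies that encode the stress-inducible HSP70. Their coding sequences are 99.4% identical, with 8 mismatches over 1926 and 1929 bases. Of the 75-base windows, 54.2% of those in Hspa1a and 55.8% of those in Hspa1b also occur in other genes, mostly in each other (52.7% and 55.8%) and some in Hspa1l. All their expected counts were whole within 0.005, so the tables show no pair of reads split between the copies, and the sources do not state how pairs that fit both were treated. The levels of either copy, and of their sum, are therefore uncertain.

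The expected counts of Hspa1a were 78, 75 and 72 in WT and 179, 185 and 44 in KO, or 1.05, 1.82 and 1.08 CPM against 2.504, 3.24 and 0.862 CPM. Those of Hspa1b were 97, 73 and 115 in WT and 177, 144 and 67 in KO, or 1.30, 1.78 and 1.73 CPM against 2.48, 2.52 and 1.31 CPM. In both copies KO 1 and KO 2 lay above every WT brain, and in Hspa1a KO 3 lay below every WT brain. The log2 fold changes of 0.75 ± 0.51 (95% interval -0.48 to 1.98) and 0.40 ± 0.31 (-0.34 to 1.14) did not pass the test (edgeR adjusted p = 0.446 and 0.502). With both copies summed into 1 gene the value was 0.57 ± 0.38 (adjusted p = 0.447). Without KO 3 the values of the separate copies were 1.13 ± 0.31 and 0.64 ± 0.23 (adjusted p = 0.268 and 0.328), and without KO 2 they were 0.37 ± 0.53 and 0.25 ± 0.35 (0.703 and 0.700). Even the highest summed level, 5.55 TPM in KO 2, was 0.290% of the Hspa8 level in the same library. KO 3 is also the library with the most meninges and microglia markers, and the part of these in its low Hspa1a level was not tested.

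Immediate early genes, a separate group of quickly induced genes, are given beside Hspa1a and Hspa1b. Their summed level was 218, 169 and 213 CPM in WT and 258, 235 and 274 CPM in KO. The sum is carried mostly by Jun and Btg2, and the mean log2 CPM of the 12 was 2.27, 2.53 and 2.5 in WT and 2.98, 3.06 and 2.94 in KO. KO 3 was thus the highest KO brain by the sum and the lowest by the mean log2 level. All 12 had positive log2 fold changes, with a median of 0.50, and 0 passed the edgeR test (4 higher at an unadjusted p below 0.05, 1 by DESeq2, 0 by limma-voom). Of all 15848 tested genes, 7909 had positive values and 10.3% were higher at an unadjusted p below 0.05. Every KO brain lay above every WT brain in 5 of the 12 and in 14.6% of all tested genes. The smallest p were those of Egr2 (1.61 ± 0.37, edgeR adjusted p = 0.107) and Jun (0.48 ± 0.15, adjusted p = 0.170), both transcription factor genes.

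Of the HSP90 pair neither gene passed the edgeR test. Hsp90ab1 (chromosome 17, 45567778 to 45573261) stood at 2110, 1865 and 2032 CPM in WT and at 2496, 2375 and 2570 CPM in KO. Every KO brain was above every WT brain, and the log2 fold change was 0.31 ± 0.08 (95% interval 0.11 to 0.50). Its edgeR adjusted p was 0.134, whereas DESeq2 called it higher (0.31 ± 0.09, adjusted p = 0.0112). Hsp90aa1 (chromosome 12, 110691036 to 110696395) stood at 722, 694 and 665 CPM in WT and at 625, 661 and 587 CPM in KO. Here every KO brain was below every WT brain, but the value of -0.15 ± 0.08 did not pass the test (-0.34 to 0.03, edgeR adjusted p = 0.321). The coding sequences of the pair are 75.3% identical. For Hsp90aa1, 53.1% of 75-base windows recur in 3 other annotated genes, and for Hsp90ab1 0.74%, in 2 genes.

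The ratio of Hsp90ab1 to Hsp90aa1 in TPM was 3.36, 3.09 and 3.51 in WT and 4.59, 4.14 and 5.04 in KO. The mean rose from 3.32 ± 0.213 to 4.59 ± 0.453 (SD, n = 3 each), with no overlap. A ratio of 2 genes from the same library does not depend on how libraries are scaled. The two-sided exact permutation p of its log2 value was 0.1, the smallest that this test allows with 3 against 3. The permutation test therefore cannot reach 0.05 for a single ratio. Of 7 ratios examined, chosen after the levels were seen, 6 had this p (0.117 after Benjamini-Hochberg adjustment over the 7), and the ratio of summed Hspa1a and Hspa1b to Hspa8 had 0.4.

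**Figure D2:**
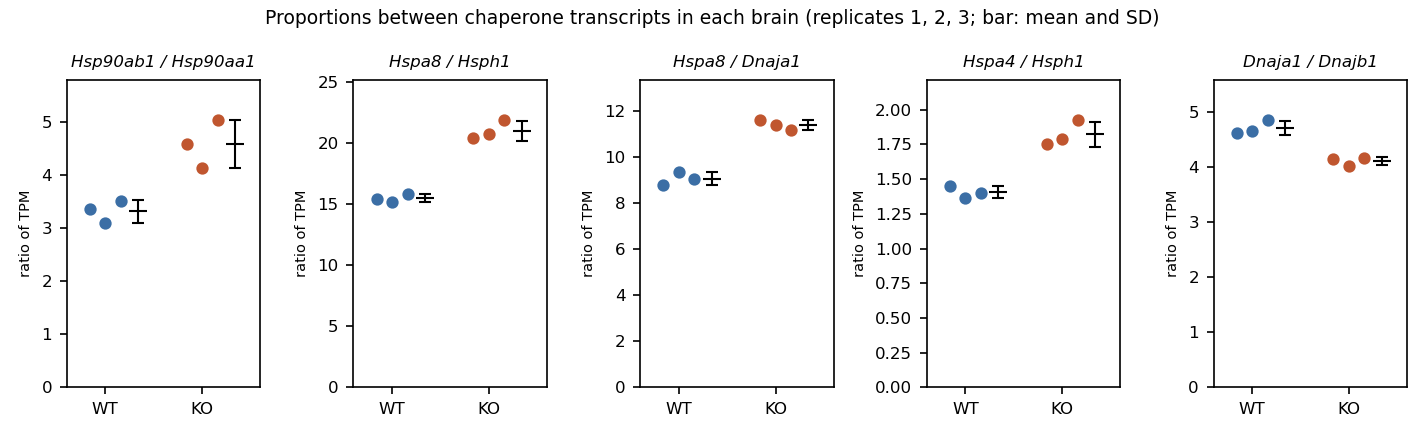
Ratio of TPM values between pairs of chaperone genes in each brain, with axes from 0, WT in blue and KO in orange, and the mean and SD beside the points. The ratio of Hsp90ab1 to Hsp90aa1 ran from 3.09 to 3.51 in WT and from 4.14 to 5.04 in KO, and it is 1 of 5 ratios drawn from the 7 examined. The ratio of summed Hspa1a and Hspa1b to Hspa8, which overlapped between groups, is not drawn.

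Of the J domain genes, Dnaja1 (chromosome 4, 40722468 to 40734965) came close to the threshold. It stood at 284, 255 and 280 CPM in WT and at 209, 215 and 209 CPM in KO. The highest KO brain was well below the lowest WT brain, and the coefficient of variation over the KO brains was 1.68%. The log2 fold change was -0.37 ± 0.06 (95% interval -0.53 to -0.22, edgeR adjusted p = 0.0614). By DESeq2 it passed (-0.37 ± 0.08, adjusted p = 0.000291). It also passed in the limma fit of log2(TPM + 1) (-0.39 ± 0.06, adjusted p = 0.0399) and missed the threshold by limma-voom (0.0608). Of its annotated exon bases, 7.05% lie opposite exons of Smu1, and the strand setting of the counting is not stated in the labels. Of its 75-base windows, 16.6% recur in 3 other annotated genes that the tables do not list. Smu1, a splicing factor gene, did not pass the test and stood at 61.2 to 70.6 CPM in WT and 72.3 to 79.9 CPM in KO.

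Dnajb1 (chromosome 8, 83608175 to 83612653), the gene of HSP40, is an inducible partner of HSP70 in taking apart protein aggregates. It stood at 53.9, 48.1 and 50.6 CPM in WT and at 44.4, 47.0 and 44.1 CPM in KO. The groups did not overlap, but their nearest brains, WT 2 and KO 2, were close. The log2 fold change of -0.17 ± 0.07 did not pass the test (95% interval -0.34 to -0.01, edgeR adjusted p = 0.245). The ratio of Dnaja1 to Dnajb1 in TPM was 4.63 to 4.86 in WT and 4.03 to 4.16 in KO. That of Hspa8 to Dnaja1 was 8.80 to 9.36 in WT and 11.2 to 11.6 in KO.

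Hsf1 (chromosome 15, 76477362 to 76501155) encodes the factor that drives the heat shock genes. Its transcript stood at 32.5, 32.2 and 34.3 CPM in WT and at 43.4, 39.4 and 37.1 CPM in KO. Every KO brain was above every WT brain, with KO 1 highest. The log2 fold change of 0.28 ± 0.08 (95% interval 0.08 to 0.47) did not pass the test by edgeR (adjusted p = 0.153) or DESeq2 (0.0752). HSF1 is controlled largely at the protein level, and transcript counts do not measure its activity.

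**Figure D3:**
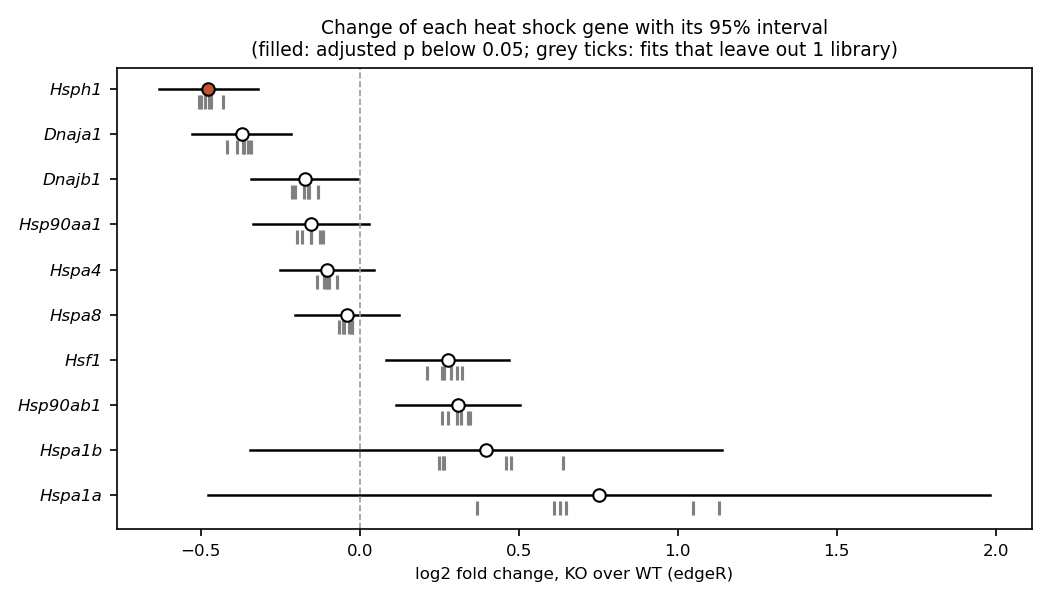
Log2 fold change of KO over WT for each of the 10 genes (point) with its 95% interval (line), and the values from the 6 fits that each leave out 1 library (grey ticks). Hsph1 alone is filled, for an adjusted p below 0.05, and the intervals of Hspa1a and Hspa1b are the widest.

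Outside the members, edgeR called Bag5, Ppp5c and Hspb11 in the lists of the cytosolic chaperone network, each described below. Of all 15848 tested genes it called 0.492% lower and 0.511% higher. At an unadjusted p below 0.05 these shares were 9.31% and 10.3%. Among 7 further HSP70 and HSP110 genes, 0 passed the edgeR test, 0 had an unadjusted p below 0.05, and DESeq2 and limma-voom called 0, with a list median of 0.02. The smallest p were those of Hspa4l, an HSP110 gene (-0.19 ± 0.12, edgeR adjusted p = 0.426), and Hspa2, a testis-enriched HSP70 (0.21 ± 0.14, adjusted p = 0.447). Among 9 further J domain genes 0 passed (1 lower at an unadjusted p below 0.05 and by DESeq2, 0 by limma-voom), with a median of -0.10. Dnajb5 stood at 104 to 116 CPM in WT and 84.2 to 94.2 CPM in KO (-0.27 ± 0.07, edgeR adjusted p = 0.136), and Dnajc5, which encodes the synaptic vesicle chaperone CSP alpha, had -0.29 ± 0.12 (adjusted p = 0.257).

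Among 9 exchange factors and partners of HSP70, edgeR called Bag5 lower and 0 higher, with a median of 0.05. DESeq2 called 1 lower and 1 higher in this list, and limma-voom 1 lower. Bag5, a BAG domain exchange factor, stood at 35.97, 37.7 and 36.7 CPM in WT and at 23.8, 25.2 and 24.3 CPM in KO. Every KO brain was below every WT brain, and Bag5 fell to 0.664 of its WT level (-0.59 ± 0.06, edgeR adjusted p = 0.0157). Leaving out any 1 library ended the call (adjusted p between 0.0516 and 0.150), while its fold change stayed between -0.61 and -0.57. Bag3, the stress-inducible member of the same family, stood at 5.66 to 6.47 CPM in WT and at 7.79, 7.90 and 11.9 CPM in KO (0.61 ± 0.20, edgeR adjusted p = 0.182).

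Among 18 HSP90 cochaperones edgeR and limma-voom called 1 lower and 0 higher, and DESeq2 2 lower and 0 higher. The edgeR median was -0.000272. The gene called by edgeR was Ppp5c, the protein phosphatase PP5 that docks on the tail of HSP90. It stood at 69.6, 68.0 and 67.8 CPM in WT and at 32.6, 35.6 and 32.7 CPM in KO. Ppp5c fell to 0.491 of its WT level (-1.03 ± 0.06, edgeR adjusted p = 0.00197), and it kept its call when any 1 library was left out (adjusted p between 0.00984 and 0.0313). Its call was lost in WT 1, WT 2, KO 1 and KO 2 alone (0.0899) and with the midbrain score as a covariate (0.259). The groups lay far apart against a spread of 1.42% in WT and 5.13% in KO. The decrease of Ppp5c was thus larger than that of any of the 10 members, although the 2 sizes were not tested against each other. The letters TGACGT were in no start window of Bag5 or Ppp5c.

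Of 14 genes of the TRiC chaperonin, which folds actin and tubulin, and its partner prefoldin, 0 passed the edgeR test (4 higher at an unadjusted p below 0.05, 2 by DESeq2, 0 by limma-voom). Every KO brain lay above every WT brain in 6 of the 14 and below in 0 (14.6% and 13.0% of all tested genes). The median of the 14 was 0.06, and Cct4 (0.24 ± 0.06, edgeR adjusted p = 0.134) and Pfdn5 (0.18 ± 0.06, adjusted p = 0.162) had the smallest p. Of 8 small heat shock genes 5 were expressed highly enough to be tested, and edgeR, DESeq2 and limma-voom each called 1 higher and 0 lower. By edgeR this was Hspb11. Its product is better known as IFT25, a part of the transport machinery of cilia. Hspb11 stood at 5.16, 4.597 and 5.28 CPM in WT and at 9.44, 8.81 and 9.64 CPM in KO (0.89 ± 0.12, edgeR adjusted p = 0.0352). Each of the 6 fits that left out a library lost this call (adjusted p between 0.0847 and 0.231). Of 8 symbols of other heat shock factors and their regulators, 7 were in the tables and 4 were tested, and 0 passed (0 at an unadjusted p below 0.05, by DESeq2 or by limma-voom). The smallest p were those of Hsbp1, which binds HSF1 trimers (-0.23 ± 0.13, edgeR adjusted p = 0.353), and Hsf5 (-0.50 ± 0.39, adjusted p = 0.498), which stayed below 1 CPM.

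A list of 17 heat-inducible genes outside the members, 12 of which also stand on the other lists, held 0 calls by edgeR (3 higher and 1 lower at an unadjusted p below 0.05, 1 lower by DESeq2, 0 by limma-voom). The median was 0.04. Ahsa1, which stimulates the ATPase of HSP90, stood at 77.5 to 81.1 CPM in WT and 66.2 to 69.4 CPM in KO (-0.21 ± 0.06, edgeR adjusted p = 0.134). The direction of Ahsa1 was that of Hsph1 and Dnaja1, and the direction of Bag3 was the opposite.

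**Figure D4:**
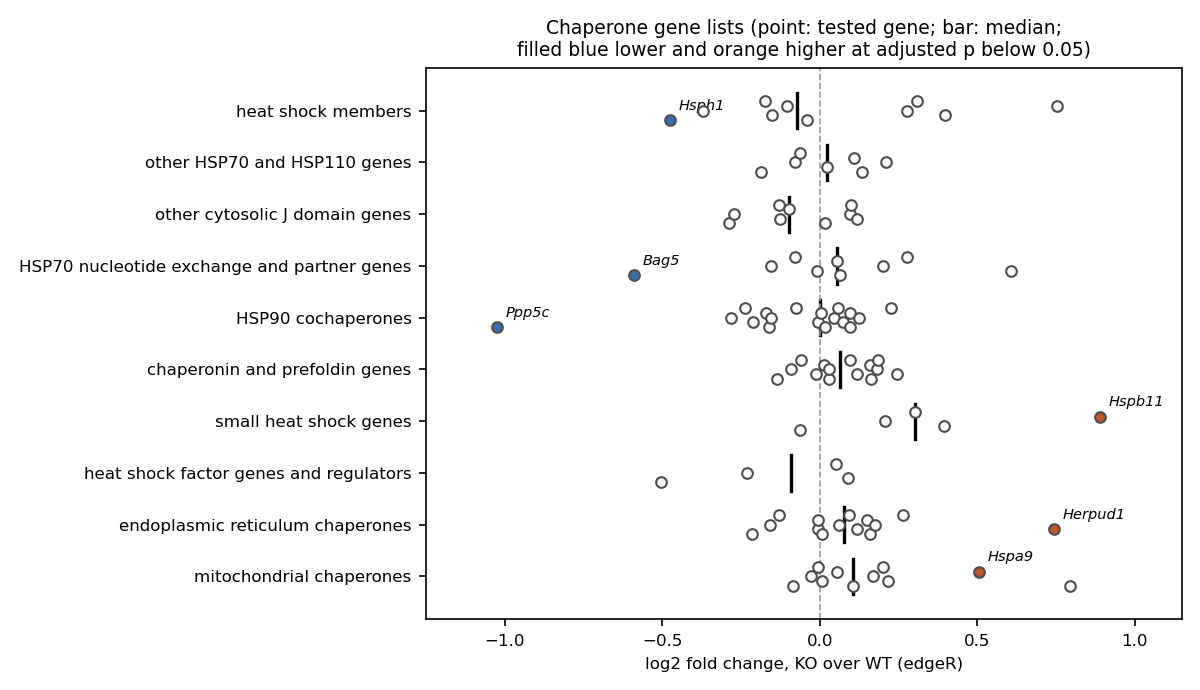
Log2 fold change of KO over WT for every tested gene of 10 chaperone lists, with the median of each list as a bar. Filled points passed the test, blue for lower and orange for higher, and they are Hsph1, Bag5, Ppp5c, Hspb11, Herpud1 and Hspa9.

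Chaperones of other compartments are set beside them. In the endoplasmic reticulum list edgeR called 1 of 14 higher, Herpud1, a factor of protein degradation at that membrane (0.74 ± 0.07, edgeR adjusted p = 0.00914), with a list median of 0.08. DESeq2 called 2 of this list higher. Herpud1 lost its call without WT 1, WT 3 or KO 1 (adjusted p = 0.0522, 0.0684 and 0.0863), in WT 1, WT 2, KO 1 and KO 2 alone (0.247) and with the midbrain score as a covariate (0.835). In the mitochondrial list edgeR called 1 of 11 higher and DESeq2 2, with an edgeR median of 0.11. The edgeR call was Hspa9, the mitochondrial HSP70 also called mortalin. Hspa9 stood at 201, 186 and 190 CPM in WT and at 288, 255 and 277 CPM in KO (0.51 ± 0.07, edgeR adjusted p = 0.0382). With any 1 library left out, Hspa9 missed the threshold (adjusted p between 0.0559 and 0.232). The cytosolic HSP70 Hspa8, with -0.04 ± 0.07, and the HSP110 Hsph1, with -0.48 ± 0.07, are given beside it. Whether these genes differ from each other in their change was not tested.

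By a fixed rule, the genes whose pattern over the 6 libraries was most like that of Hsph1 were sought among 10158 candidates. These had a mean of 10 CPM or more, and predicted gene models (Gm with a number, or Rik) were left out. Likeness was the root mean square difference of log2 CPM, each gene centred on its own mean. The 5 nearest were Lancl2 (0.05), Ick (0.05), Tmem29 (0.05), Gas2l1 (0.06) and Rasal2 (0.06), against a spread of Hsph1 itself of 0.27 (SD). None of them is on a chaperone list used here. For the sum of Hspa1a and Hspa1b, with a spread of 0.57, the nearest were Ntrk2 (0.23), Ecel1 (0.24), Dlx6 (0.24), Cpne5 (0.25) and Kifc2 (0.28). None of the candidates thus came as close to the sum as those did to Hsph1. The sum itself, at 2.175 to 5.764 CPM, lay below the limit set for candidates, so genes of its level were not searched.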

How the data were processed

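Per the labels, total RNA of 3 WT and 3 E4f1 KO brains was made into stranded mRNA libraries sequenced as pairs. Tools named in the submitters' processing notes are STAR 2.5.3a, RSEM 1.2.28, Trimmomatic and FastQC, with the builds mm10 and GRCm38, and their settings are not stated. The authors deposited expected counts per gene (read pairs assigned by RSEM) and TPM. The FPKM column was not used. Here expected counts were rounded and tested with edgeR (4.0.16): filterByExpr, TMM scaling, robust quasi-likelihood F test, two-sided, all 6 libraries, Benjamini-Hochberg adjustment over all tested genes, calls below 0.05. SEs are the fold change over the root of F, and 95% intervals use edgeR's total degrees of freedom. DESeq2 (1.42.0) and limma (3.58.1; voom on the same counts, or log2 TPM of genes with at least 1 TPM in 3 libraries) are alternatives, whose effect the closing section gives with that of the rest. Coordinates come from RefSeq (GRCm38.p6), and exon overlaps and transcript sequences from GENCODE. Litters are not stated, so p-values measure only the spread between these brains.

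The members and lists were chosen with earlier results of these data known. Named genes are the 10 members, E4f1, up to 4 called genes of each other list by fold change or, with none called, the 2 of smallest p, and the 5 genes nearest in pattern. Smu1 was named after its values were seen. Pairs of libraries within a group differed by a chi-square of 45.2 to 175 per degree of freedom, so each counts as a separate sample.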

Additional observations from a re-analysis of the deposited data

How the results depend on the processing

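The count of called genes was 159 (81 higher, 78 lower) and changed by over 1.5 times with DESeq2 (1437), limma on TPM with a pseudocount of 1 (247) or 0.1 (241) and the replicate number as a block (66). It ranged from 36 to 82 without 1 library. Scaling by library totals gave 123 higher and 63 lower. In the 4 brains WT 1, WT 2, KO 1 and KO 2 alone, and with the midbrain score as a covariate, edgeR called 0 genes (1546 and 753 at an unadjusted p below 0.05), and E4f1, at -1.57 and -1.65, lost its call. The members called lower numbered 2 (Hsph1 and Dnaja1) with DESeq2 and both TPM fits. They numbered 0 with library totals, the replicate block, the 4 brains alone (4 members at an unadjusted p below 0.05), the midbrain score (2) and in each fit without 1 library (0 to 0). One member rose by DESeq2 (1, Hsp90ab1). Hspa8 turned to 0.026 with library totals and to 0.0032 in the 4 brains alone, and Hsbp1 to 0.00098 with the midbrain score. The causes were not tested. The replicate block left Hsph1 at -0.48 (adjusted p = 0.0706). Samples with the same number correlated in their deviations at 0.121, 0.173 and 0.016, so the numbers were not taken to pair them. Hspa8 was the only member to change direction in any of the 20 alternatives. Bag5, Hspb11, Herpud1 and Hspa9 also lost their calls with the replicate block (adjusted p = 0.0564, 0.0706, 0.0502 and 0.0589). Hspa1a and Hspa1b rest on 44 to 185 counts per library, and the SE of Hspa1a was 0.51 with all brains and 0.31 without KO 3.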
